A study of Mus musculus with 8 samples.

Results

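The 39 Hox genes of the mouse HoxA, HoxB, HoxC and HoxD clusters were followed through 8 RNA-seq libraries of C3H10T1/2 cells that stably express a tagged histone H3. They are all the genes of the table, among 31276, whose symbol is Hoxa, Hoxb, Hoxc or Hoxd and a number: 11 in HoxA, 10 in HoxB, 9 in HoxC and 9 in HoxD. C3H10T1/2 is a multipotent mesenchymal line taken from C3H mouse embryos; it was grown in DMEM with 10% serum and used between passages 10 and 15. Each line carried a FLAG-HA-tagged transgene of histone H3.3 or of histone H3.1. The transgenes were H3.3 K36M, H3.3 K36I, H3.1 K36M, H3.1 K36R, H3.3 K36R, H3.3 K36A, H3.3 K36L and H3.3 wild type, written WT. In K36M the lysine at position 36 of H3 is replaced by methionine, in K36I by isoleucine, in K36R by arginine, in K36A by alanine and in K36L by leucine. Each transgene had 1 library and no replicate. Methionine or isoleucine at this position is known from the literature to inhibit the enzymes that methylate the lysine, so the 3 lines that carry either were set against the other 5. Since every line of a class has its own transgene, a p-value here reflects only how much these lines vary, and some of that variation may be technical.

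Hox genes encode homeodomain transcription factors that give cells of the embryo their position along the head-to-tail axis and the limb. Within a cluster the genes lie in the order of their expression along the body: low-numbered genes at one end act at the head side and early, high-numbered genes at the other end act toward the tail and late. Genes with the same number in different clusters are paralogues. Polycomb proteins keep unused Hox genes silent through methylation of lysine 27 of histone H3, Trithorax proteins oppose them, and in biochemical assays methylation of lysine 36 hinders methylation of lysine 27 on the same histone tail. Mesenchymal cells in culture are known to keep a pattern of active Hox genes that reflects where in the embryo they came from.

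The 39 genes had a very uneven level. Of these, 10 passed the filter on low values (a mean at least 1 above the lowest value of the table on the deposited log2 scale), among them Hoxa2 to Hoxa7, Hoxa10, Hoxb9 and Hoxc13. Another 10 reached more than 10 normalised reads in some library without passing the filter: Hoxa9, Hoxb3, Hoxb4, Hoxb5, Hoxb6, Hoxb7, Hoxb8, Hoxb13, Hoxc6 and Hoxc9. Normalised reads are reads divided by the authors' size factor of the library, recovered from the deposited log2 values; 1 read is worth 0.851 to 1.31 of them. The other 19 genes never exceeded 10 normalised reads and are called silent: Hoxa11, Hoxa13, Hoxb1, Hoxb2, Hoxc4, Hoxc5, Hoxc8, Hoxc10, Hoxc11, Hoxc12 and all 9 Hoxd genes. Just inside this limit lay Hoxc4 with at most 7.89 normalised reads and just outside it Hoxc9 with at most 13.0.

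**Figure D1:**
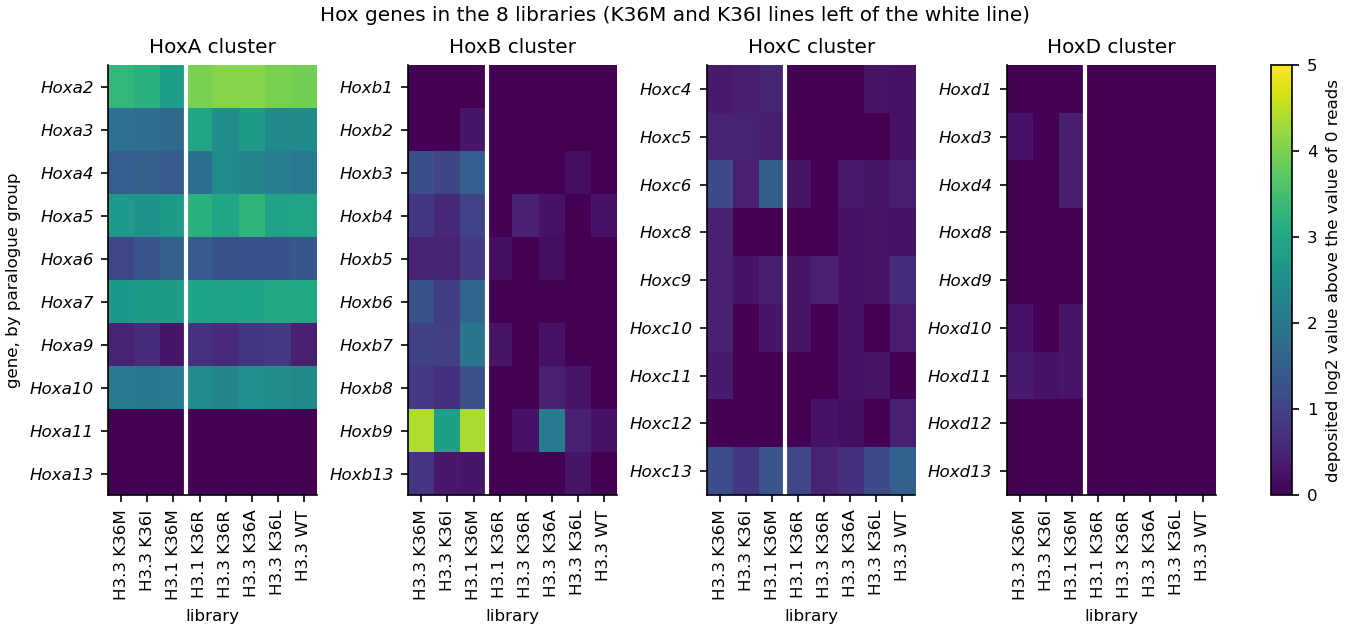
Heat maps of the Hox genes, 1 panel per cluster, with genes in order of paralogue group down the page and libraries across, the K36M and K36I lines to the left of the white line. Colour gives the deposited log2 value above the value that stands for 0 reads. HoxA was transcribed in all 8 libraries up to Hoxa10, HoxB stood above 0 reads mainly in the K36M and K36I lines, and HoxD had values at or close to 0 reads throughout.

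Most Hox reads in the lines without K36M or K36I came from HoxA, and HoxB supplied a large share in the K36M and K36I lines. HoxB summed to 1386, 447 and 1546 normalised reads in H3.3 K36M, K36I and H3.1 K36M, against 3.28, 7.60, 160.0, 10.7 and 3.72 in H3.1 K36R, H3.3 K36R, H3.3 K36A, H3.3 K36L and H3.3 WT. The classes did not overlap, and among the other 5 lines K36A alone exceeded 11 summed normalised reads. HoxA summed to 1609, 1524 and 1455 normalised reads in H3.3 K36M, K36I and H3.1 K36M, against 2581, 2573, 2765, 2417 and 2352 in H3.1 K36R, H3.3 K36R, K36A, K36L and WT. These sums did not overlap either, in the opposite direction. HoxB thus held 44.4%, 22.2% and 48.9% of Hox reads in H3.3 K36M, K36I and H3.1 K36M, and between 0.125% and 5.42% in the other lines. In HoxB most of the sum was Hoxb9, which held 86.0%, 72.8% and 74.3% of it in the K36M and K36I lines. The number of Hox genes over 10 normalised reads was 17, 16 and 17 in the K36M and K36I lines and 9 to 11 in the others.

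**Figure D2:**
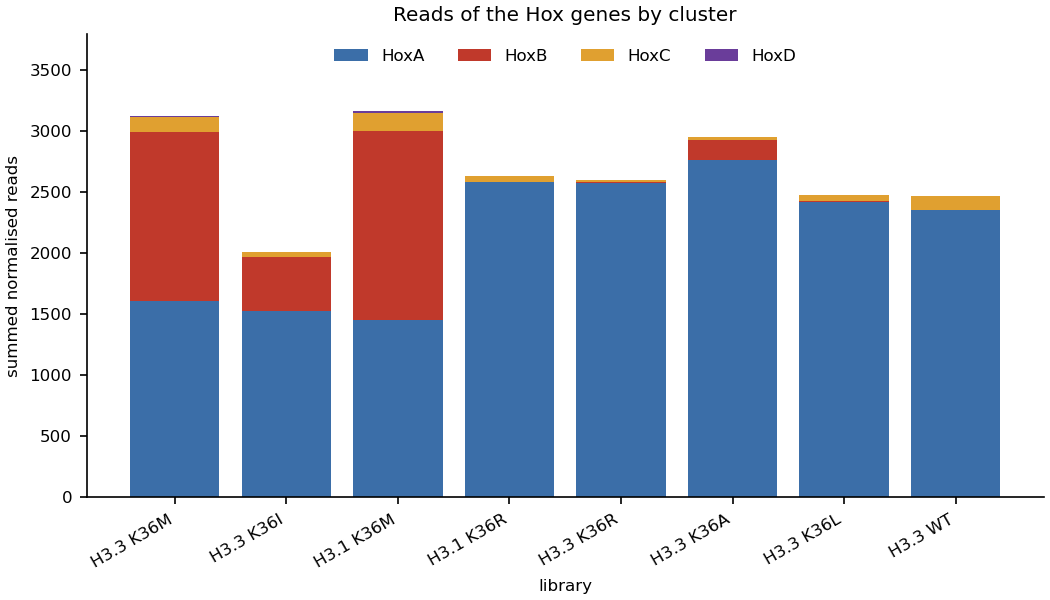
Stacked bars of summed normalised reads per library, coloured by cluster, with the K36M and K36I lines at the left. The HoxB part reached 1546 in H3.1 K36M and 1386 in H3.3 K36M, and was at most 160 in the 5 other lines, while the HoxA part was 1455 to 1609 at the left and 2352 to 2765 at the right.

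In the class comparison, 1 Hox gene rose and 4 fell among the 10 past the filter (limma, Benjamini-Hochberg adjusted p under 0.05 over 14215 genes). Over all genes past the filter 6.45% were called higher and 6.82% lower. The median difference over the 10 was -0.29 on the deposited log2 scale, against -0.01 over all genes tested. Setting library medians equal turned the split of all calls from 917 higher and 970 lower into 1156 higher and 805 lower, and left 1 Hox gene higher and 3 lower. The filter reads the mean over 8 libraries, so it admitted Hoxb9 only through the lines where it was high, and most of HoxB could not enter this test.

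A fit over all 23001 genes with a read in any library took in 31 Hox genes, of which the K36M and K36I lines had 12 called higher and 3 called lower. Among the 12, Hoxb6 and Hoxd11 had 0 reads in all 5 other lines, so they entered only through the lines where they had reads. Their constant values elsewhere make the error small. Without Hoxb6 and Hoxd11, 10 were called higher. Of these, Hoxb3, Hoxb13 and Hoxc5 had 1 or 2 reads in 1 of the other lines and 0 in the rest, which makes their error small too. The background was 6.7% of genes called higher and 4.3% lower. By cluster, 3 of 9 tested HoxA genes were lower and 0 higher; 8 of 9 HoxB genes were higher and 0 lower; 3 of 9 HoxC genes were higher and 0 lower; and 1 of 4 HoxD genes was higher. The classes did not overlap in 12 Hox genes that were higher in every K36M and K36I line and in 6 that were lower in every such line; of all genes with a read, 9.93% and 7.85% did so in each direction. The deposited scale compresses low values, so a difference of a gene with few reads is smaller there than that of its logged reads. Even read numbers were commoner than odd ones (66.7% to 70.3% of genes with 1 to 20 reads in a library), so 2 reads may stand for 1 sequenced fragment and the lowest values rest on very few molecules.

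**Figure D3:**
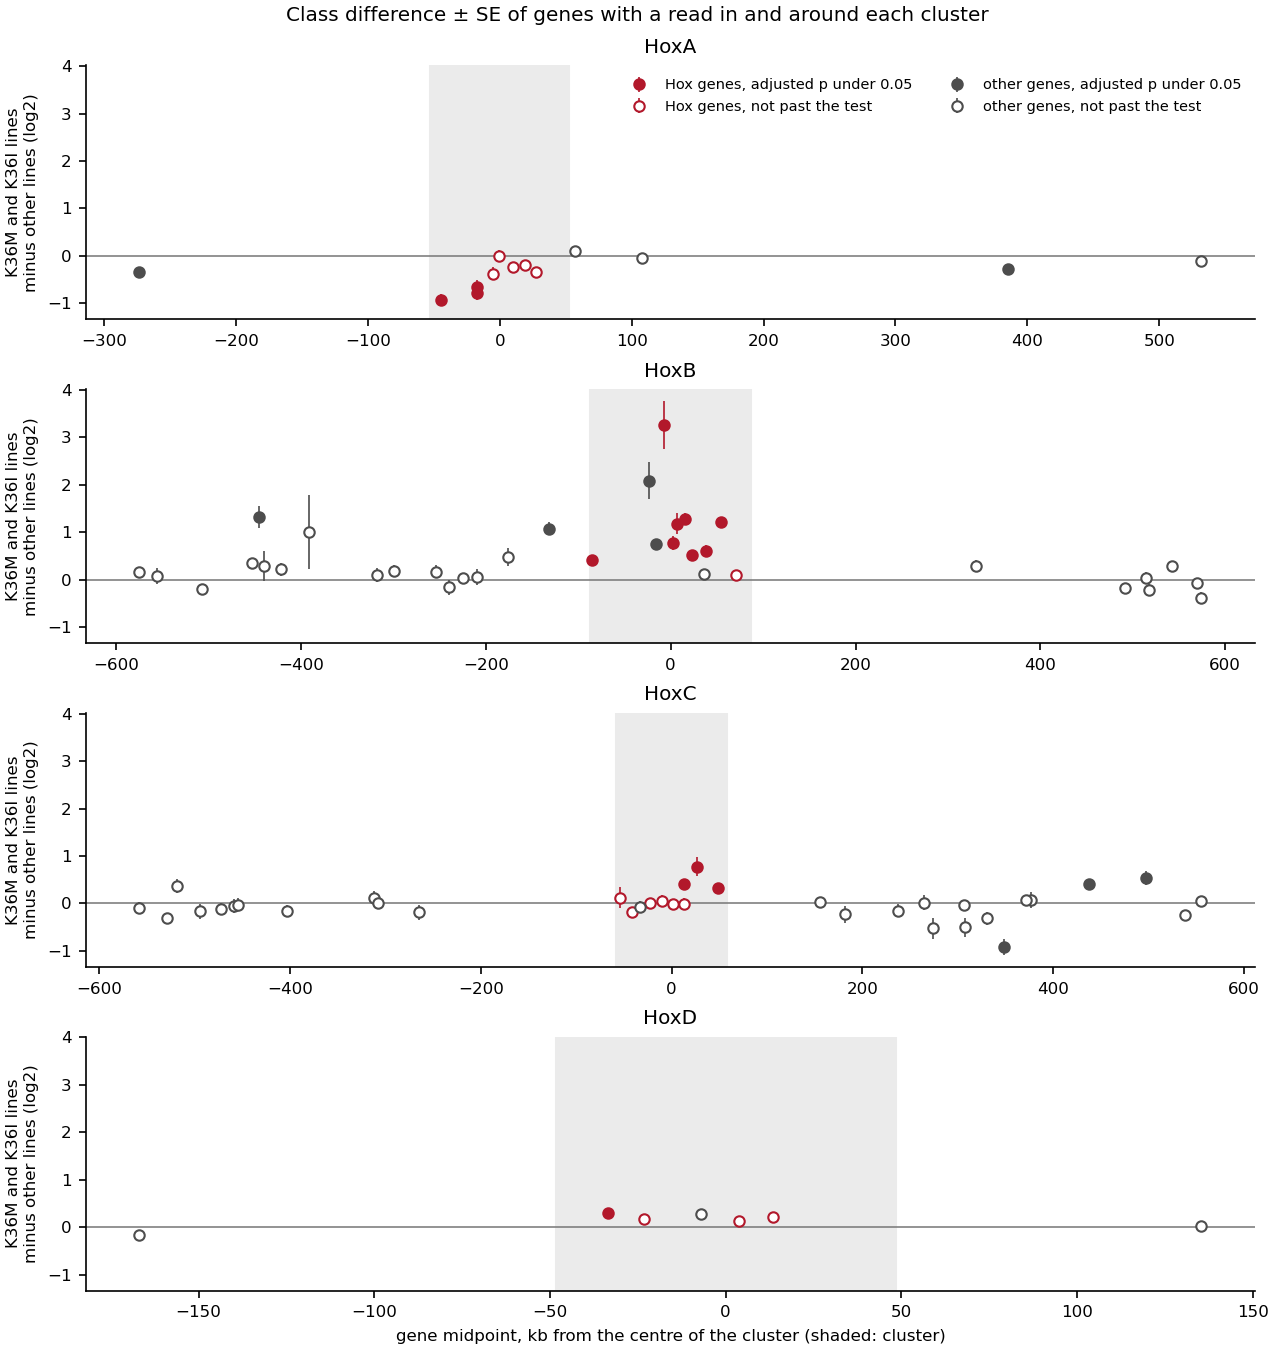
Class difference against the gene's distance in kb from the centre of each cluster, for Hox genes in red and other genes in grey. The difference is the K36M and K36I lines minus the other lines on the deposited log2 scale. Bars give ± SE from the limma fit over 23001 genes, and filled points had an adjusted p under 0.05 in it. Shading marks the cluster. The filled red points lie below 0 in HoxA and above 0 in HoxB, HoxC and HoxD. Those of Hoxb6 and of Hoxd11, the only filled HoxD gene, are a description and not a test. Both genes entered the fit only through the lines where they had reads. Hoxb3, Hoxb13 and Hoxc5 did so too, apart from 1 or 2 reads in 1 other line, and theirs are also a description. The filled grey points outside the shading that lie farthest from 0 are Abi3 and Ttll6 beside HoxB and Zfp385a beside HoxC.

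HoxA lies on chromosome 6 (GRCm38, minus strand for its genes), and 9 of its 11 genes had reads in all 8 libraries. Reads reached up to Hoxa10, with Hoxa9 far lower than its neighbours, and Hoxa11 and Hoxa13, the genes of the tail-side end, which are known for limb and genital patterning, had 0 reads in all libraries. A count of 0 allows up to 3 reads, or 2.55 to 3.94 normalised reads per library, from counting error alone. This takes each read as its own fragment, and the floor is higher where reads come in pairs. Per kb of exon, Hoxa2 was the highest of the cluster in both classes, with a mean of 237 normalised reads per kb in the K36M and K36I lines and 500.2 in the others. Hoxa5 followed with 149.9 normalised reads per kb in the K36M and K36I lines and 212 in the others, then Hoxa7 with 101 in the K36M and K36I lines and 125 in the others.

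Hoxa2, which directs the identity of the second pharyngeal arch and the hindbrain, had the highest level of the cluster per kb and fell. It had 500.1, 452 and 313 normalised reads in H3.3 K36M, K36I and H3.1 K36M, against 862, 940.1, 937, 871 and 829.9 in H3.1 K36R, H3.3 K36R, H3.3 K36A, H3.3 K36L and H3.3 WT. Each of the 3 lines was below each of the 5, and H3.1 K36M was the lowest. The class difference was -0.92 on the deposited log2 scale (SE 0.12, limma adjusted p = 0.00246), with means of 422 ± 97.2 (SD, 3 lines) and 888 ± 48.6 (SD, 5 lines). Its exons overlap those of Gm28308, as do those of Hoxa3, on the same strand. Within the histones the difference was -0.77 among the H3.3 lines and -1.20 between H3.1 K36M and H3.1 K36R.

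The promoter of Hoxa2 is given because this gene fell and had the largest difference of HoxA on the deposited log2 scale, and that of Hoxa13 because it had 0 reads throughout. Both run from 250 bases before to 50 bases after the RefSeq start (GRCm38.p6, minus strand, chr6:52164782-52165081 for Hoxa2 and chr6:52260831-52261130 for Hoxa13), with CG pairs in capitals.
Hoxa2: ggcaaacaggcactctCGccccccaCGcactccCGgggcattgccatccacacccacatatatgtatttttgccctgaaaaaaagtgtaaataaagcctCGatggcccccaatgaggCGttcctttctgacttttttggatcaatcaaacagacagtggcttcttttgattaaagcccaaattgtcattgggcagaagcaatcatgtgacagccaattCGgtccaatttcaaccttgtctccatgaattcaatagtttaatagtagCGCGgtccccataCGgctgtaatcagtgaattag
Hoxa13: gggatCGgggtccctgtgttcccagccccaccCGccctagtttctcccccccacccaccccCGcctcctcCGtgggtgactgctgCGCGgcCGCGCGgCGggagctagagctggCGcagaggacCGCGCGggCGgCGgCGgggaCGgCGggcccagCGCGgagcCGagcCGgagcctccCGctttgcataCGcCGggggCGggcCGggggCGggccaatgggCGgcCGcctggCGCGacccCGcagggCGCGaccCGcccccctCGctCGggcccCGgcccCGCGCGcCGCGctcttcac
The Hoxa2 window holds 9 CG pairs and the Hoxa13 window 45, where the median over 32851 RefSeq promoter windows of this length is 7.

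Hoxa3 and Hoxa4 fell beside Hoxa2, and on log2(normalised reads + 1) their differences, -1.21 and -1.17, were larger than the -1.10 of Hoxa2. Hoxa3, needed for the thymus and parathyroid, had 120, 108 and 98.6 normalised reads in H3.3 K36M, K36I and H3.1 K36M, against 355, 229, 295, 209 and 207 in H3.1 K36R, H3.3 K36R, K36A, K36L and WT. The classes did not overlap, and H3.1 K36R was the highest. Its difference was -0.78 (SE 0.15, limma adjusted p = 0.0106); it was -0.65 among the H3.3 lines and -1.21 within H3.1. Hoxa4, a gene of the neck region, had 71.6, 74.0 and 68.3 normalised reads in H3.3 K36M, K36I and H3.1 K36M, against 110, 218, 191, 163 and 145.0 in H3.1 K36R, H3.3 K36R, K36A, K36L and WT. The 3 lines differed little among themselves and lay below all of the 5. Its difference was -0.65 (SE 0.14, limma adjusted p = 0.0178), and the call was lost without H3.3 K36M (adjusted p = 0.0663) or without H3.3 K36I (0.0536). Exons of Hoxa3 overlap those of Hoxaas2, Hoxaas3, Gm29430 and 5730596B20Rik on the other strand, exons of Hoxa4 those of Gm29430 and exons of Hoxa7 those of Hoxaas3; strand use in counting is not given, so reads of these transcripts cannot be told apart.

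From Hoxa5 to Hoxa10 the differences on the deposited log2 scale were smaller than those of Hoxa2, Hoxa3 and Hoxa4, without a steady decline along the cluster. Hoxa10, which acts in the uterus, the lumbar spine and the limb, had 154, 143 and 151 normalised reads in H3.3 K36M, K36I and H3.1 K36M, against 219, 188, 243, 227 and 206 in H3.1 K36R, H3.3 K36R, K36A, K36L and WT. The classes did not overlap. Its difference was -0.35 (SE 0.09, limma adjusted p = 0.0397), and 11 of 18 alternative settings ended the call, 7 of them by leaving out a library, with adjusted p up to 0.119. Hoxa5, known from lung and neck skeleton, had 292, 258 and 294 normalised reads in H3.3 K36M, K36I and H3.1 K36M, against 447, 367, 484, 340.0 and 351 in H3.1 K36R, H3.3 K36R, K36A, K36L and WT, a difference of -0.37 that did not pass (SE 0.12, adjusted p = 0.0764). Hoxa7, a gene of the thoracic region, had 277, 296 and 299.7 normalised reads in H3.3 K36M, K36I and H3.1 K36M, against 348, 338, 345, 385 and 378 in H3.1 K36R, H3.3 K36R, K36A, K36L and WT, a difference of -0.23 that did not pass (SE 0.08, adjusted p = 0.114). In both genes the classes still did not overlap.

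Hoxa6 and Hoxa9 did not pass. Hoxa6 had 37.2, 57.0 and 74.9 normalised reads in H3.3 K36M, K36I and H3.1 K36M, against 68.9, 48.4, 50.8, 49.7 and 61.3 in H3.1 K36R, H3.3 K36R, K36A, K36L and WT, a difference of -0.0046 (SE 0.12, adjusted p = 0.986) whose sign changed to 0.044 with library medians set equal. Hoxa9 had 7.63, 11.9 and 2.63 normalised reads in H3.3 K36M, K36I and H3.1 K36M, against 15.3, 11.4, 19.2, 21.4 and 5.58 in H3.1 K36R, H3.3 K36R, K36A, K36L and WT, and its classes overlapped (-0.20, SE 0.12, limma adjusted p = 0.337 over genes with a read). It lay between Hoxa7 and Hoxa10 in the cluster and had 1.32 normalised reads per kb in the K36M and K36I lines and 2.61 in the others, where Hoxa10 had 45.6 in the K36M and K36I lines and 66.3 in the others.

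**Figure D4:**
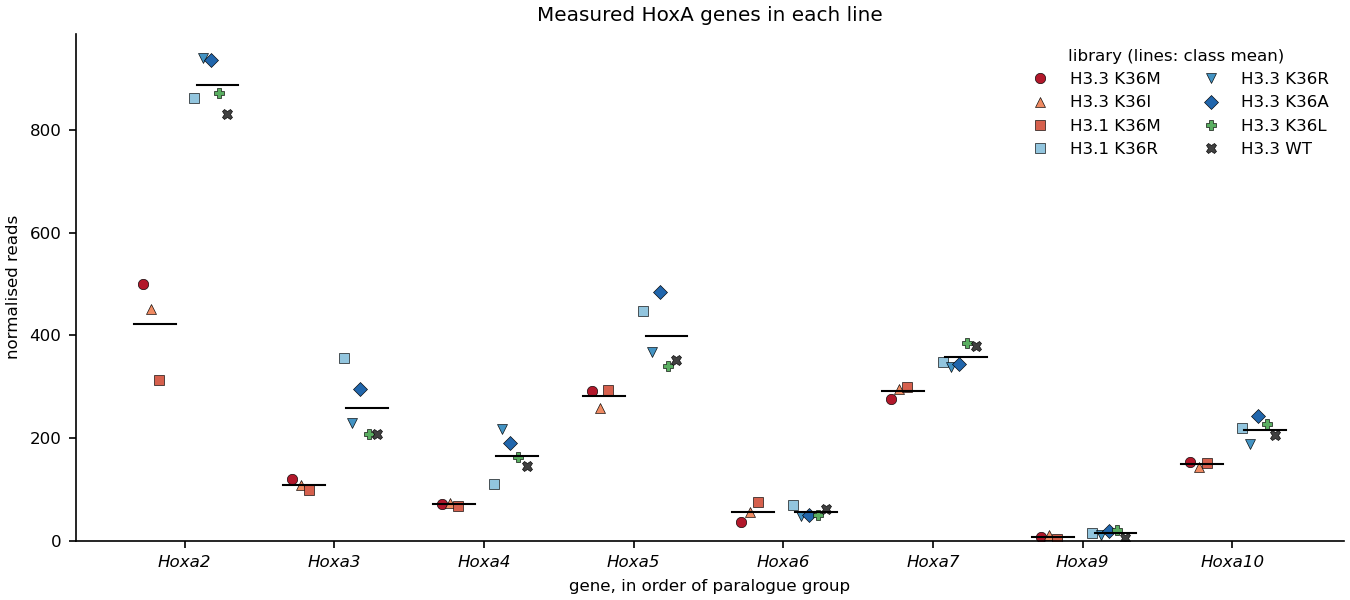
Normalised reads of 8 HoxA genes over 10 normalised reads, 1 point per library, with class means as lines and the K36M and K36I lines at the left of each gene. Hoxa2, Hoxa3, Hoxa4, Hoxa5, Hoxa7 and Hoxa10 show no overlap between the classes, and Hoxa6 and Hoxa9 do.

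HoxB lies on chromosome 11 (96194316 to 96368256, plus strand), where Hoxb13 stands far from the rest at the tail-side end and Hoxb1 is the gene of the head-side end. In the 5 lines without K36M or K36I every HoxB gene had at most 5.85 normalised reads, apart from Hoxb9 in K36A. In the K36M and K36I lines every Hox gene of the block from Hoxb3 to Hoxb9 had reads. Hoxb5 was the lowest of these genes in each of the lines. It had 7.63 and 6.81 normalised reads in H3.3 K36M and K36I, below the limit set for silent genes, and 21.0 in H3.1 K36M. Hoxb1 had 0 reads in all 8 libraries, and Hoxb2 had 2.63 normalised reads in H3.1 K36M and 0 elsewhere. Since these are bulk libraries, more cells transcribing a gene and more RNA per cell cannot be told apart.

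Hoxb9, a gene of the thoracic spine and mammary gland, had the largest difference of the 39. It had 1191, 325 and 1149 normalised reads in H3.3 K36M, K36I and H3.1 K36M, against 0, 1.90, 149.4, 5.85 and 1.86 in H3.1 K36R, H3.3 K36R, H3.3 K36A, H3.3 K36L and H3.3 WT. The classes did not overlap; K36I was the lowest of the 3 and K36A stood far above the other 4. The class difference was 3.26 in the fit over genes with a read (SE 0.51, limma adjusted p = 0.00419). That fit is given because Hoxb9 passed the filter only through the lines where it was high. The difference was 2.87 among the H3.3 lines and 4.36 within H3.1. Per kb of exon it averaged 345 normalised reads in the K36M and K36I lines, above the mean of every HoxA gene there, and 12.4 in the other lines. This held for the mean and not for each line. In K36I, Hoxa2 had the most reads of all Hox genes, 452 normalised reads against 325 of Hoxb9.

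The genes from Hoxb3 to Hoxb8 were higher in the K36M and K36I lines too, at lower levels than Hoxb9. Hoxb6 had 54.4, 26.4 and 85.4 normalised reads in H3.3 K36M, K36I and H3.1 K36M and 0 reads in each of the other 5 lines. The fitted difference was 1.28; since the gene entered the fit only through the 3 lines that had reads, this is a description and not a test. Hoxb3 had 46.8, 34.0 and 73.6 in the same 3 lines, against 0.974 in K36L and 0 in the other 4. Its fitted difference was 1.22. Apart from 1 read in K36L, Hoxb3 too entered the fit only through the 3 lines, so this is a description and not a test. Neither gene showed any overlap, and both were highest in H3.1 K36M. Hoxb3 shares exon sequence with Hoxb3os on the other strand, as does Hoxb2.

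Hoxb7, a gene known to promote growth of mesenchymal and tumour cells, had 28.6, 27.2 and 131 normalised reads in H3.3 K36M, K36I and H3.1 K36M, against 2.19, 0, 1.92, 0 and 0 in H3.1 K36R, H3.3 K36R, K36A, K36L and WT (1.18, SE 0.22, limma adjusted p = 0.00873). Hoxb8, which restrains differentiation of blood progenitors, had 21.0, 13.6 and 48.6 in H3.3 K36M, K36I and H3.1 K36M, against 5.75 in K36A, 1.95 in K36L and 0 in the other 3 lines (0.77, SE 0.15, limma adjusted p = 0.0111). In both genes H3.1 K36M was above the 2 H3.3 lines of its class, and no line of the other class reached the lowest of the 3. Hoxb4, which expands blood stem cells when overexpressed, had 19.1, 10.2 and 31.5 in H3.3 K36M, K36I and H3.1 K36M, against 0, 5.70, 1.92, 0 and 1.86 in H3.1 K36R, H3.3 K36R, K36A, K36L and WT (0.61, SE 0.13, limma adjusted p = 0.0167), and the call was lost without H3.3 K36M. Hoxb5, a gene of the shoulder region, had 7.63, 6.81 and 21.0 in H3.3 K36M, K36I and H3.1 K36M, against 1.09 in H3.1 K36R, 0.958 in K36A and 0 in the other 3 lines (0.53, SE 0.10, limma adjusted p = 0.00924). Its exons overlap Hoxb5os on the other strand.

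Hoxb13, the gene of the tail bud and prostate, was raised mainly in 1 line. It had 17.2 normalised reads in H3.3 K36M, with 3.40 in H3.3 K36I and 2.63 in H3.1 K36M, against 1.95 in K36L and 0 in the other 4 lines. The difference was 0.41, and the call was lost in 6 of 8 fits that left out a library. Outside the K36M and K36I lines Hoxb13 had only 2 reads, in K36L, so this too is a description and not a test. All 8 fits called Hoxb3, Hoxb5, Hoxb7, Hoxb8 and Hoxb9. Outside the K36M and K36I lines, Hoxb3 had 1 read in K36L alone, so the fit without K36L took it in only through the K36M and K36I lines. Within the K36M and K36I class the order of lines was alike across genes: of the 12 Hox genes called higher, H3.1 K36M was the highest of the 3 lines in 8 and H3.3 K36M in 4, and H3.3 K36I was the lowest in 9. With 1 library each, these orders have no test.

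**Figure D5:**
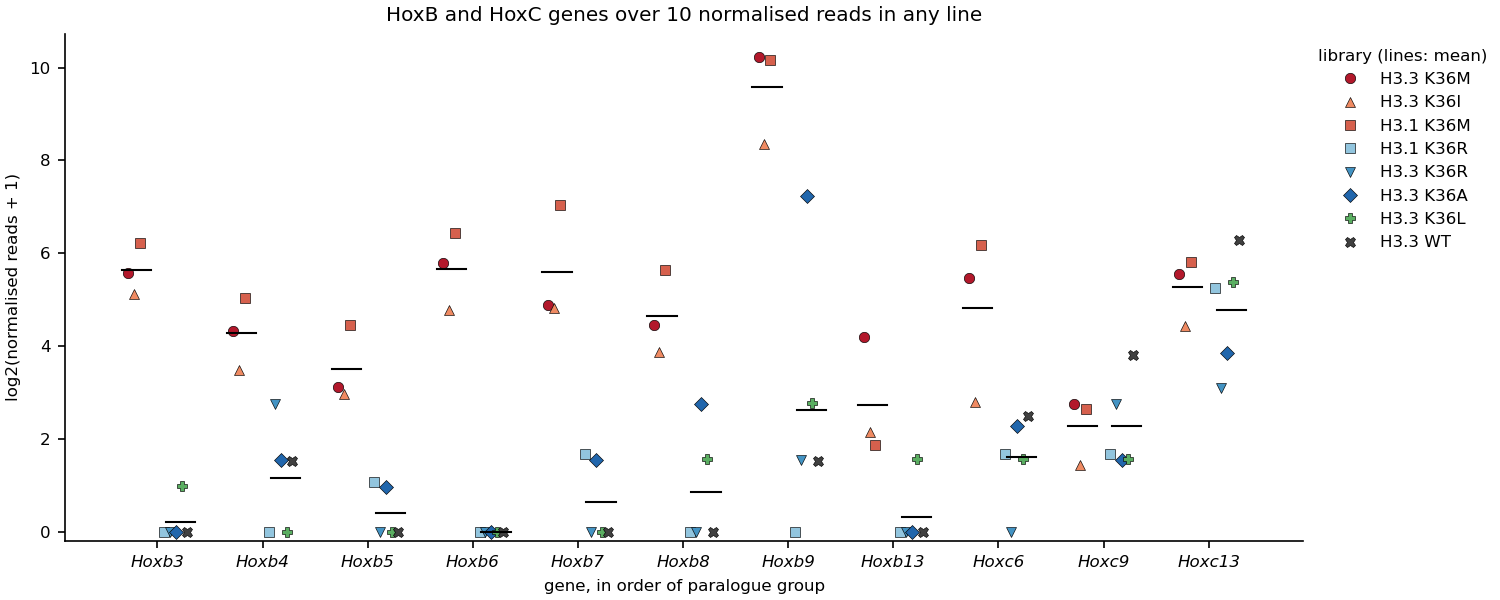
log2(normalised reads + 1) of the HoxB and HoxC genes that exceeded 10 normalised reads in any line, 1 point per library, with class means as lines and the K36M and K36I lines at the left of each gene. From Hoxb3 to Hoxb9 the 3 left points lie above all 5 right points; the K36A point of Hoxb9, at 149.4 normalised reads, is the highest at the right, and Hoxc9 and Hoxc13 overlap.

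Promoters of Hoxb8 and Hoxb4 are shown as members of the block that rose together (250 bases before to 50 after the RefSeq start, GRCm38.p6, plus strand, chr11:96281655-96281954 and chr11:96318017-96318316, CG pairs in capitals). RefSeq windows were matched for 22 of the 39 genes, and Hoxb3, Hoxb5, Hoxb6, Hoxb7 and Hoxb9 were not among them.
Hoxb8: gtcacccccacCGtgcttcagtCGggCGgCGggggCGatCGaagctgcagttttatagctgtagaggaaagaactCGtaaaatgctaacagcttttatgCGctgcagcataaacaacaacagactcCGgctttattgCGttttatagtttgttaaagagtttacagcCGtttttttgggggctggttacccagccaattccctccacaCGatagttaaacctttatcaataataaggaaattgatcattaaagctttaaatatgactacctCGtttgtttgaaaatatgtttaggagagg
Hoxb4: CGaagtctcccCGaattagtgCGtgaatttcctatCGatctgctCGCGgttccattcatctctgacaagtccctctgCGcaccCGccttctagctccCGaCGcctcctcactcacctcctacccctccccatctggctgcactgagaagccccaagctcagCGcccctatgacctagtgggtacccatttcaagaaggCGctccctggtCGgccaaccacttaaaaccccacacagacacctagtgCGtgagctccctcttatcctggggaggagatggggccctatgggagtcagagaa
These windows hold 13 and 14 CG pairs with a GC content of 42.3% and 58%. Patterns were searched on both strands. The letters TTTATG, bound by Cdx proteins, occur in the Hoxb8 window and in 11.9% of all 32851 windows, and TATAAA occurs there and in 13.6% of all. TGATNNAT, the pattern of a Pbx and Hox pair, occurs in the windows of Hoxb8, Hoxb1, Hoxa2 and Hoxd11 and in 8.85% of all windows. CCAAT occurs in 15 of the 24 Hox windows (62.5%), against 37.4% of all. In the Hoxb4 window none of these 4 patterns was found.

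Other transcripts inside HoxB followed Hoxb9. Gm53, a long noncoding RNA gene between Hoxb13 and Hoxb9 (96251105 to 96264868), had 345, 50.2 and 298 normalised reads in H3.3 K36M, K36I and H3.1 K36M, against 35.4 in K36A and 0 in the other 4 lines (2.08, SE 0.39, limma adjusted p = 0.00936). The hairpin gene Mir196a-1, next to it, had 30.5, 8.51 and 22.3 in H3.3 K36M, K36I and H3.1 K36M, against 1.92 in K36A and 0 in the other 4. Its difference of 0.74 is a description and not a test, as it had almost no reads outside the K36M and K36I lines. In both, as in Hoxb9, K36I was the lowest of its class and K36A the highest of the other 5 lines. Reads at a hairpin gene cannot be told apart from those of a longer transcript across it, and mature miRNAs were not analysed here. Mir10a, between Hoxb5 and Hoxb4, had 3.94 normalised reads in H3.1 K36M and 0 elsewhere. In HoxC, Hotair, a long noncoding RNA gene, had 0 to 3.82 normalised reads in the K36M and K36I lines and 0 to 7.44 in the others, and did not pass (-0.08, SE 0.12, limma adjusted p = 0.731).

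The miR-196 and miR-10 miRNAs of the clusters are shown because they target Hox messages and form 2 families by seed. Mature RefSeq sequences (GRCm38.p6) of miR-196a, encoded in HoxB by Mir196a-1 (chr11:96265187-96265208, plus strand), miR-196b, encoded in HoxA (chr6:52230129-52230150, minus strand), and miR-10a, encoded in HoxB (chr11:96317186-96317208, plus strand), have bases 2 to 8, the seed, in capitals.
miR-196a-5p: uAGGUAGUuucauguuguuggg
miR-196b-5p: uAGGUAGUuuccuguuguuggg
miR-10a-5p: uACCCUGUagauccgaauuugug
miR-196a is known in mouse to cleave the Hoxb8 message at a nearly complementary site of its 3′ UTR. In the GENCODE M21 transcript of Hoxb8, base 2208 opens the window nearest to the full complement of miR-196a, with 21 of 22 bases complementary, where the next best window has 11.
Hoxb8 site: cccaacaacatgaaactGccta
The capital marks the substitution A18G, counted from the window's first base, with the base of the perfect complement first. Exact complements of the seed were found in the 3′ UTRs of 8 of the 39 Hox genes: Hoxa4, Hoxa5, Hoxa7, Hoxa9, Hoxb1, Hoxb6, Hoxb7 and Hoxc8. Hairpin genes Mir196b, Mir196a-2, Mir10b and Mir615 had 0 reads in all 8 libraries.

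HoxC (chromosome 15, 102921103 to 103036852, plus strand) was low in all lines. At its head-side end Hoxc4, Hoxc5 and Hoxc6 were called higher in the fit over genes with a read, though Hoxc4 and Hoxc5 count as silent. Hoxc6, a thoracic gene, had 42.9, 5.96 and 71.0 normalised reads in H3.3 K36M, K36I and H3.1 K36M, against 2.19, 0, 3.83, 1.95 and 4.65 in H3.1 K36R, H3.3 K36R, K36A, K36L and WT (0.78, SE 0.20, limma adjusted p = 0.0404). K36I lay close to the other class and the call was lost in 7 of 8 fits without a library. Hoxc5 had 7.63, 6.81 and 5.26 normalised reads in H3.3 K36M, K36I and H3.1 K36M, against 1.86 in WT and 0 in the other 4 lines. Its difference of 0.42 is a description and not a test, as outside its class it had only 2 reads, in WT. Hoxc4 had 3.82, 5.10 and 7.89 in H3.3 K36M, K36I and H3.1 K36M, against 1.95 in K36L, 1.86 in WT and 0 in the other 3 (0.33, SE 0.09, limma adjusted p = 0.0453), and was lost in 6 of the 8 fits. These 3 genes neighbour each other, and Hoxc5 as annotated shares exon sequence with Hoxc10.

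The tail-side end of HoxC did not part by class. Hoxc13, a gene of hair and nail formation, had 45.8, 20.4 and 55.2 normalised reads in H3.3 K36M, K36I and H3.1 K36M, against 37.2, 7.60, 13.4, 40.9 and 77.1 in H3.1 K36R, H3.3 K36R, K36A, K36L and WT. WT was the highest of all 8 lines and the classes overlapped (0.13, SE 0.24, limma adjusted p = 0.788). Hoxc9 had 13.0 normalised reads in WT and 1.70 to 5.73 in the other 7 lines. Hoxc8, Hoxc10, Hoxc11 and Hoxc12 had 0 to 5.73 normalised reads in each library, with no call.

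HoxD (chromosome 2, 74668310 to 74765142, plus strand) was silent. Hoxd1, Hoxd8, Hoxd9, Hoxd12 and Hoxd13 had 0 reads in all 8 libraries, and all 9 genes had 0 reads in the 5 lines without K36M or K36I. Hoxd11, a limb gene, had 3.82, 1.70 and 2.63 normalised reads in H3.3 K36M, K36I and H3.1 K36M, below the floor of 3 reads in 2 of the 3 lines. Its difference of 0.30 is a description too, as the gene entered the fit only through these lines. Hoxd3 and Hoxd10 had 1.91 to 5.26 normalised reads in H3.3 K36M and H3.1 K36M and 0 in K36I. Hoxd4 had 5.26 in H3.1 K36M alone; its annotated exons overlap those of Hoxd3. In all, HoxD summed to 7.63, 1.70 and 15.8 normalised reads in the 3 lines.

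K36M against K36R, which sets the same pair of substitutions in both histones side by side, called 1 of the 10 Hox genes past the filter, where 4.5% of all genes were called. This was Hoxb9 at 1191 and 1149 normalised reads in H3.3 K36M and H3.1 K36M, against 1.90 and 0 in H3.3 K36R and H3.1 K36R. Its difference was 4.26. Since Hoxb9 passed the filter only through the lines where it was high, this is a description and not a test. Over the 22139 genes with a read in these 4 libraries, 6 Hox genes were called higher (Hoxb3, Hoxb6, Hoxb7, Hoxb8, Hoxb9 and Hoxc6) and Hoxa2 lower (-0.99, SE 0.18, limma adjusted p = 0.0273); 3.09% of genes were called higher and 2.59% lower. Of these, Hoxb3, Hoxb6 and Hoxb8 had 0 reads in both K36R lines. They entered this fit only through the K36M lines, so their calls are a description and not a test. This comparison shares its 4 libraries with the class comparison.

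The histone that carried the transgene was tested with class as a term. H3.1 against H3.3 called 0 of the 10 Hox genes past the filter (limma, 0 at unadjusted p under 0.05), where 11% of all genes were called, and 0 of 31 with a read (2 at unadjusted p under 0.05). Whether the class difference itself differed between H3.1 and H3.3 was tested by an interaction over 23001 genes, of which 3.47% were called. Among 31 Hox genes it marked Hoxd4 and Hoxb2, both with reads in H3.1 K36M alone. They entered the fit only through that line, so this is a description and not a test. Hoxb7 (0.79), Hoxa2 (-0.42) and Hoxb3 (0.42) did not pass, nor did the other Hox genes in it. H3.1 libraries were also the shallower ones, with 45448249 and 53199065 reads against 61139941 to 68020958 in H3.3 libraries.

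Each line was also read against H3.3 WT. With 1 library each there is no test, and Hox genes at a distance of 1 or more on the deposited log2 scale were counted; WT is shared by all of these counts. H3.3 K36M had 3 such Hox genes, all higher (Hoxb3, Hoxb6 and Hoxb9), where 6.26% of genes with a read differed so. H3.3 K36I had 2, Hoxb3 and Hoxb9 (5.29% of all genes). H3.1 K36M had 7, with Hoxa2 lower and Hoxb3, Hoxb6, Hoxb7, Hoxb8, Hoxb9 and Hoxc6 higher (7.7% of all). H3.1 K36R had 0 (2.27%) and H3.3 K36L had 0 (0.696%). H3.3 K36R had 1, Hoxc13, with a difference of -1.03 (1.19%), and H3.3 K36A had 1, Hoxb9, with a difference of 1.81 (1.42%). H3.1 K36M differed from H3.1 K36R in 9: Hoxa2 and Hoxa3 lower, and Hoxb3, Hoxb4, Hoxb6, Hoxb7, Hoxb8, Hoxb9 and Hoxc6 higher, where 5.3% of genes with a read differed so. Hoxb9 was 4.16, 2.58 and 4.11 above WT in H3.3 K36M, K36I and H3.1 K36M.

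Genes around the clusters were read over 500 kb on each side. Of 61 genes other than Hox genes in and beside the clusters with a read, 6 were called higher and 3 lower in the fit over genes with a read, where 6.7% of all such genes were called higher and 4.3% lower. Ttll6, which modifies tubulin and lies 28.9 kb from Hoxb13, was the nearest measured gene on that side of HoxB, at 50.6, 72.3 and 26.3 normalised reads in H3.3 K36M, K36I and H3.1 K36M, against 2.19, 0, 0, 1.95 and 1.86 in H3.1 K36R, H3.3 K36R, K36A, K36L and WT (1.07, SE 0.13, limma adjusted p = 0.00151). The autophagy adaptor gene Calcoco2, at 82.4 kb, had 32.4, 15.3 and 0 in H3.3 K36M, K36I and H3.1 K36M, against at most 1.92 in the others, and did not pass (0.48, SE 0.20, adjusted p = 0.167). Abi3, at 352 kb, rose by 1.32 (SE 0.23, limma adjusted p = 0.00694). On the far side of Hoxb1, Skap1, at 96.3 kb, had 12.4, 10.2 and 34.2 in H3.3 K36M, K36I and H3.1 K36M, against 2.92 to 15.3 in the others, and did not pass (adjusted p = 0.2).

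Beside HoxA, the adaptor gene Skap2, the nearest measured gene on the side away from Hoxa13, fell by 0.33 (SE 0.08, limma adjusted p = 0.0210), and Hibadh, an enzyme of valine breakdown beyond Hoxa13, fell by 0.28 (SE 0.08, adjusted p = 0.0490). Evx1, the homeobox gene next to Hoxa13, had 1.90 normalised reads in K36R and 0 elsewhere. Snx10, farther out than 500 kb, fell by 0.97 (SE 0.20, limma adjusted p = 0.0150). Beside HoxC, Calcoco1 and Smug1, the nearest genes past the filter, did not pass (-0.19, SE 0.15, adjusted p = 0.494 and -0.23, SE 0.18, adjusted p = 0.477), Gtsf1 and Nckap1l rose by 0.41 and 0.54, and Zfp385a fell by 0.92 (SE 0.18, limma adjusted p = 0.0105). Beside HoxD, Lnp and Mtx2 did not pass (-0.16, SE 0.06, adjusted p = 0.164 and 0.03, SE 0.09, adjusted p = 0.860). Of 18 listed flanking genes past the filter 3 were called lower and 0 higher, with a median of -0.17, where 6.82% of all genes past the filter were called lower and 6.45% higher.

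Genes known to work with or on Hox genes were read from lists, against 6.45% called higher and 6.82% lower, and a median of -0.01, over all genes past the filter. Of the TALE homeodomain cofactors, which bind DNA beside Hox proteins, 0 of 8 past the filter were called, with a median of 0.04; Meis1 differed by 0.67 (SE 0.20, adjusted p = 0.0620) and did not pass. Of 23 Polycomb genes 0 were called, with a median of 0.02; Rnf2, the ring-finger ligase of PRC1, differed by -0.51 (SE 0.19, adjusted p = 0.109) and Ezh2, the lysine 27 methyltransferase, by -0.31 (SE 0.11, adjusted p = 0.0974). Of 13 Trithorax and opposing genes 0 were called, with a median of -0.02; the largest differences were Dpy30 (0.22, SE 0.09, adjusted p = 0.162) and Ash2l (0.22, SE 0.08, adjusted p = 0.125), core subunits of the lysine 4 methyltransferases. Of 9 Cdx and retinoid genes past the filter 1 fell: Cyp26b1, which degrades retinoic acid, an inducer of Hox genes, had 142, 333 and 81.5 normalised reads in H3.3 K36M, K36I and H3.1 K36M, against 1268, 1654, 3901, 2449 and 1456 in H3.1 K36R, H3.3 K36R, K36A, K36L and WT (-2.93, SE 0.39, limma adjusted p = 0.00233). The retinal dehydrogenase gene Aldh1a3 differed by -1.93 (SE 0.62, adjusted p = 0.0781) and the receptor gene Rarg by -0.49 (SE 0.17, adjusted p = 0.101), and neither passed. Cdx2 and Cdx4 had 0 reads in all libraries. The part of these genes in the Hox differences was not tested.

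The label of the cells was read from marker genes. All 10 mesenchymal markers passed the filter, summing to 442800 to 523800 normalised reads in the K36M and K36I lines and 570300 to 716500 in the others. The median difference of the 10 was -0.055; Twist2, Twist1 and Cd44 rose, where 6.45% of all genes past the filter did, and the other 7 did not pass. Among these Col1a2, a chain of type I collagen, differed by -0.68 (SE 0.19, limma adjusted p = 0.0521). Leukocyte markers summed to 40.8 to 90.7 in the K36M and K36I lines and 28.7 to 50.3 in the others, with Cd3e at 0 throughout and Ptprc at most 7.89. Endothelial markers summed to 14.5 to 41.0 in the K36M and K36I lines and 37.2 to 84.8 in the others. Epithelial markers, mostly Cdh1, summed to 706 to 1144 in the K36M and K36I lines and 295 to 795 in the others, with Epcam at most 2.19. Krt8, an epithelial keratin, had 47.7, 76.6 and 13.1 normalised reads in H3.3 K36M, K36I and H3.1 K36M, against 1.90 to 14.9 in the others. It was called higher in the fit over genes with a read (0.69, SE 0.19, limma adjusted p = 0.0457), though H3.1 K36M lay below WT at 14.9. The keratin genes Krt18 and Krt5 had at most 2.55, in K36I, and 7.79, in K36L. Neural markers, mostly Tubb3, summed to 674 to 2223 in the K36M and K36I lines and 523 to 3538 in the others. Their part in the Hox differences was not tested.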

How the data were processed

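Trizol RNA went into Illumina TruSeq libraries, per the labels' protocols. Tools named by the submitters' processing notes are DESeq2 (no version), featureCounts 1.4.4, STAR 2.3.0e and Trimmomatic 0.32, with build mm10; their settings, the annotation and use of strand were not given in the sources used here. Values as deposited are log2 values from a variance-stabilising transformation by the authors, with no correction for gene length. Inverting it turned 100% of values into whole reads (tolerance 0.001), from which normalised reads and depths (45448249 to 68020958 reads) were computed; no column was left out. The lowest value, 5.95, stands for 0 reads.

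Tests were two-sided moderated fits by limma 3.58.1 (R 4.3.3, trend over intensity, Benjamini-Hochberg threshold 0.05) on 14215 genes whose mean was at least 1 above the lowest value, and again on all 23001 genes with a read; the other 8275 have 0 reads in every library. K36M against K36R had histone as a term, and H3.1 against H3.3 had class as a term. Silent meant at most 10 normalised reads in every library. Floors cover counting error only and take each read as its own fragment. The class, histone and K36M against K36R fits were tested on simulated reads of genes past the filter. The fits over genes with a read and the interaction were not tested in this way. Coordinates are from GENCODE M21 (GRCm38, the assembly of mm10), sequences from RefSeq (GRCm38.p6) and GENCODE. Hox genes are named, apart from 1 that, like 1 cofactor gene, is not reported here; of other lists, members called in the class comparison, up to 2 others with the largest differences and the nearest measured flanking genes. Members and lists were chosen with earlier results of these data known.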

Additional observations from a re-analysis of the deposited data

Results flagged for a closer look

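Among the 20 Hox genes over 10 normalised reads, the highest and lowest of the 5 lines without K36M or K36I were compared with the rest of those lines on the deposited log2 scale (gap to the nearest line over the whole range, critical value 0.71), a rule by which chance flags about 1 in 20 groups. Hoxb9 in H3.3 K36A stood apart with a ratio of 0.786: it had 149.4 normalised reads, against 5.85 in K36L, the next of these lines. Gm53 (35.4) and Mir196a-1 (1.92) were also highest in K36A among these lines. Hoxb3 in H3.3 K36L (0.974 normalised reads against 0 in the others) and Hoxb13 in H3.3 K36L (1.95 against 0) each gave a ratio of 1 from 1 or 2 reads.

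The interaction fit of class and histone flagged Hoxd4, with 0.42 on the deposited log2 scale, and Hoxb2, with 0.30. Both genes entered that fit only through H3.1 K36M, the only H3.1 line of its class, so this is a description and not a test. Hoxd4 had 4 reads and Hoxb2 had 2 reads in H3.1 K36M and both had 0 in the other 7 libraries, so both calls rest on reads of 1 library below or near the floor of 3 reads.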

How the results depend on the processing

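No transgene has a replicate and the whole classes hold 3 and 5 lines, so leaving out a library was the main check; genes under about 31 normalised reads on average enter only the fit over genes with a read, where calls such as Hoxd11, Hoxc4 and Hoxc5 rest on few reads. No paired analysis was possible because each transgene has 1 library and no replicate number that could pair samples; histone was matched as a term instead. Leave-one-out fits of K36M against K36R were not run, as the histone term then leaves no residual degrees of freedom. Of the 10 Hox genes past the filter, Hoxa2, Hoxa3 and Hoxb9 kept direction and call in every alternative fitted. Hoxb9 passed the filter only through the lines where it was high. Hoxa4 lost its call in 2 alternatives and Hoxa10 in 11, and Hoxa5 and Hoxa7 gained one in 2 and in 1. Hoxa6, never called, changed sign with library medians set equal (0.044) and across fits without a library (-0.11 to 0.11). The cause of these changes was not tested.

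All genes called in the class comparison (1887) became 2959 with histone as a covariate and 4074 with array weights, and 1021 to 2084 without a library; over genes with a read they were 1550 to 2825 without a library. Hox genes called higher (1) became 12 without the filter, 0 with a mean of at least 2 above the lowest value, which leaves out Hoxb9, and, in settings chosen after seeing the data, 10 by limma-voom and 9 by limma on genes with at least 10 reads in all. Hox genes called lower (4) were 6 with array weights and 2 to 4 without a library. Over genes with a read, the 12 higher were 8 in H3.3 libraries only and 8 to 12 without a library, and the 3 lower were 2 to 3; these settings too were chosen after seeing the data. H3.1 against H3.3 called 12 genes in the 4 K36M and K36R libraries and 183 to 1934 without a library, against 1567, with 0 Hox genes in each. K36M against K36R called 1256 genes without the filter and 222 with no histone term, against 639. Without the filter it called 7 Hox genes, among them Hoxb3, Hoxb6 and Hoxb8, which had 0 reads in both K36R lines. Hox genes past the difference from WT, at 0.5 in place of 1, numbered 11, 9 and 11 in H3.3 K36M, K36I and H3.1 K36M, 1 in H3.1 K36R and 2 in K36A, where 17.4%, 15.4%, 22.4%, 9.95% and 5.93% of genes with a read did so in these 5 lines. On log2(normalised reads + 1) they numbered 18, 16 and 22 in H3.3 K36M, K36I and H3.1 K36M, 11 in H3.1 K36R, 9 in K36R, 10 in K36A and 10 in K36L, where 25.6%, 24.4%, 29% and 18.3%, 15.1%, 15.3% and 14.1% of genes with a read did so in these 7 lines. With a limit of 5 normalised reads 12 genes were silent, in place of 19.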
